A study of Mus musculus with 13 samples.

Results

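Matrix metalloproteinases (MMPs) and ADAMTS proteases cut the extracellular matrix, and the tissue inhibitors of metalloproteinases (TIMPs) hold them in check. Expression of 10 such genes was followed in UG26-1B6 stroma: Mmp2, Mmp3, Mmp13, Mmp14 and Mmp23, Adamts1 and Adamts5, and Timp1, Timp2 and Timp3. A gene was represented by those Affymetrix probe sets whose only annotated symbol was that gene. Among its probe sets, the one with the highest mean over all 13 arrays stood for the gene. All 10 genes had a probe set, out of 18194 genes with a single symbol on the array, and together they had 25 probe sets. A filter on low values required more than 2.38, the pooled median, in at least 2 arrays. It left 12205 genes for testing, 9 of the 10 among them, and Mmp13 did not pass.

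UG26-1B6 is 1 clone of stromal cells, grown out of the urogenital ridge of a midgestation mouse embryo. Day 0 stroma (3 arrays) was taken off by trypsin. Co-cultures were stroma grown to confluence, given 30 Gy and then seeded with LSK cells, the Lin- Sca-1+ c-Kit+ fraction that is rich in blood stem and progenitor cells. They were harvested after 1 day (3 arrays), 2 days (3 arrays) or 3 days (2 arrays). A medium control (2 arrays) had a change of medium and was collected 24 h later. The sources used here do not give whether day 0 and medium control stroma were irradiated, or how stroma was parted from LSK cells. If those controls were not irradiated, LSK cells and the 30 Gy cannot be told apart in any comparison of co-culture with them. All stroma was grown in medium with serum and conditioned medium, and the labels name no genetic change in the clone. Replicates are biological by the titles but technical by the design text. The p-values therefore cover no more than the spread among these arrays, which may be technical.

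MMPs are made as inactive precursors. Mmp14, the membrane-anchored MT1-MMP, activates the Mmp2 precursor at the cell surface, and Timp2 takes part in that complex at low levels and blocks it at high levels. Timp3 binds to the matrix and also inhibits Adamts5 and some ADAM proteases, whereas Timp1 is secreted and inhibits Mmp14 poorly. In stroma that supports blood cells, such proteases can release growth factors and cytokines held in the matrix or at the cell surface.

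Promoter windows help to show which genes share letters near their start and which do not. RefSeq entries on GRCm38.p6, 250 bases before to 50 after the start, were held for 8 of the 10 genes, with 2 windows for Mmp23. Mmp2 and Adamts5 had none. The windows of Mmp14, Timp2 and Timp3 are shown because these genes, by the probe set used, were lower in every co-culture array than elsewhere. Those of Timp1 and Mmp23 are shown because both genes went another way, and that of Mmp13 because it was seen in 1 array. Capitals mark 3 motifs searched on both strands: AP-1 (TGANTCA), the TATA box (TATAAA) and the GC box (GGGCGG, written CCGCCC where it lies on the other strand).
Mmp14 (chr14:54431348-54431647, + strand): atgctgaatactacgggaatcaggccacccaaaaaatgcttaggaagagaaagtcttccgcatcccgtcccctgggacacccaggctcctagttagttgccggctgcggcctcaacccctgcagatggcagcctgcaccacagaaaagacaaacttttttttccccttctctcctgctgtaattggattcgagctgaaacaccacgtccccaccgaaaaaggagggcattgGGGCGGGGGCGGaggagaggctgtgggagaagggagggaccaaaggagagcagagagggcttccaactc
Timp2 (chr11:118355362-118355661, - strand): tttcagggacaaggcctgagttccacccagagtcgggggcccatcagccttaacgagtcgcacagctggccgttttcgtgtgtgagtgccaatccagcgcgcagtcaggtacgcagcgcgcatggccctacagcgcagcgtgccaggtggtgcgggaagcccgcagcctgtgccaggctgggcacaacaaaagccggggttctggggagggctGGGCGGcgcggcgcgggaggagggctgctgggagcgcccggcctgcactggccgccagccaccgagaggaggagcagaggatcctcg
Timp3 (chr10:86300162-86300461, + strand): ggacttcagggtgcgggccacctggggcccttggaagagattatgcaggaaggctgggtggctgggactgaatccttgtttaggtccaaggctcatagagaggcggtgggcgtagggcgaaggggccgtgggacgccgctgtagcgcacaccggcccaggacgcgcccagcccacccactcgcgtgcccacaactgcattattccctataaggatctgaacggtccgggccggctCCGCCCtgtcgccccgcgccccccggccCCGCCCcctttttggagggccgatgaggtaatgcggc
Timp1 (chrX:20869916-20870215, + strand): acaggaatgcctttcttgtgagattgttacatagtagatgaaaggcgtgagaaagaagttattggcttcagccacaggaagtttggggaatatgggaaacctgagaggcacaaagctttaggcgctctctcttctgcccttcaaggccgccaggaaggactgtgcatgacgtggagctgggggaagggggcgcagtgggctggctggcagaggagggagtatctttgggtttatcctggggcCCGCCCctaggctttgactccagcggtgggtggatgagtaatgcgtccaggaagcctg
Mmp23 (chr4:155653241-155653540, - strand): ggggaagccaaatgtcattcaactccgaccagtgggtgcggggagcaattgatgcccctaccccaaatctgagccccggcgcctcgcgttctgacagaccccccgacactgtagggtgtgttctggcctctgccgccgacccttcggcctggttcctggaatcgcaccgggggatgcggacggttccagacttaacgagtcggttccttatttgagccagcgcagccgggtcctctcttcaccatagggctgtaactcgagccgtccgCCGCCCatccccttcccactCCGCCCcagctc
Mmp13 (chr9:7272264-7272563, + strand): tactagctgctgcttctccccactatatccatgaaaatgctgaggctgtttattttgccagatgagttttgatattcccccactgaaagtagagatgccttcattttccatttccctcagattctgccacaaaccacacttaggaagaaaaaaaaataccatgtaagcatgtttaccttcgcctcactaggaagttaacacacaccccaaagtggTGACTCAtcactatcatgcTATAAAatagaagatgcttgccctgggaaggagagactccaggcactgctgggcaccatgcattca
Mmp14 held 2 GC boxes, Timp2 held 1 and Timp3 held 2. Timp1 held 1 and this Mmp23 window held 2, while the other Mmp23 window, not printed, held none. The GC box was therefore not limited to the genes that were lower. It was found in 35.7% of 32851 promoters of the same length. Mmp13 held 1 AP-1 and 1 TATA motif and no GC box, as did the Mmp3 window, which is not printed. AP-1 was found in 7.8% and TATAAA in 13.6% of all promoters. Adamts1, also not printed, held 3 GC boxes and 1 TATA motif. No 2 motifs overlapped in the windows shown, though the 2 GC boxes of Mmp14 adjoin. Mmp3 and Mmp13 lie on chromosome 9 with 2 protein-coding genes between them, Mmp12 and Mmp1b, and Adamts1 and Adamts5 are neighbours on chromosome 16.

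The arrays differed in ways that bear on every value below. A list of 22 blood cell markers, 19 of them tested, averaged 4.08 to 5.12 in co-culture on day 1, 5.89 to 9.89 on day 2 and 6.57 to 7.92 on day 3, against 3.14 to 3.32 in the 5 arrays without LSK cells. All values are on the log2 scale. On day 2 and day 3, 6 and 5 of the 19 markers rose over day 0, among them Mpo and Ctsg, while Itgam, Kit and Spi1 were mostly at the lowest value. A stroma list, 11 of 13 genes tested, averaged 9.24 to 10.1 on day 1 of co-culture, 6.61 to 9.42 on day 2 and 9.37 to 9.52 on day 3, against 10.4 to 11.3 at day 0 and 10.1 to 10.2 in the medium control. Thy1 and Lum, also stroma markers, were near the lowest value throughout. Of 5 endothelial markers, Pecam1, Cdh5 and Emcn were near it too, and so was Tek except for 7.12 in replicate 2 of day 0. Kdr, the 1 endothelial marker tested, had 6.28, 5.89 and 6.66 at day 0 and 10.40 and 10.42 in the medium control. On day 1 of co-culture Kdr had 8.83, 9.19 and 8.59, and on days 2 and 3 it ranged from 2.56 to 10.16. Replicate 1 of day 2 had a gap of 8.96 between the 3' and 5' Gapdh probe sets, replicate 2 of day 3 had 5.79, and the other 11 arrays had 2.15 to 3.82. Poly-A spike-in controls, added RNAs read by 24 probe sets, averaged 6.78 to 12.8 in the 8 co-culture arrays, against 3.31 to 6.01 in the other 5. Replicate 1 of day 2 also correlated at most 0.785 with any other array. Each array reads RNA pooled over the cells of a sample, whichever cells were kept. Fewer cells of a type and less RNA per cell therefore cannot be told apart.

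**Figure D1:**
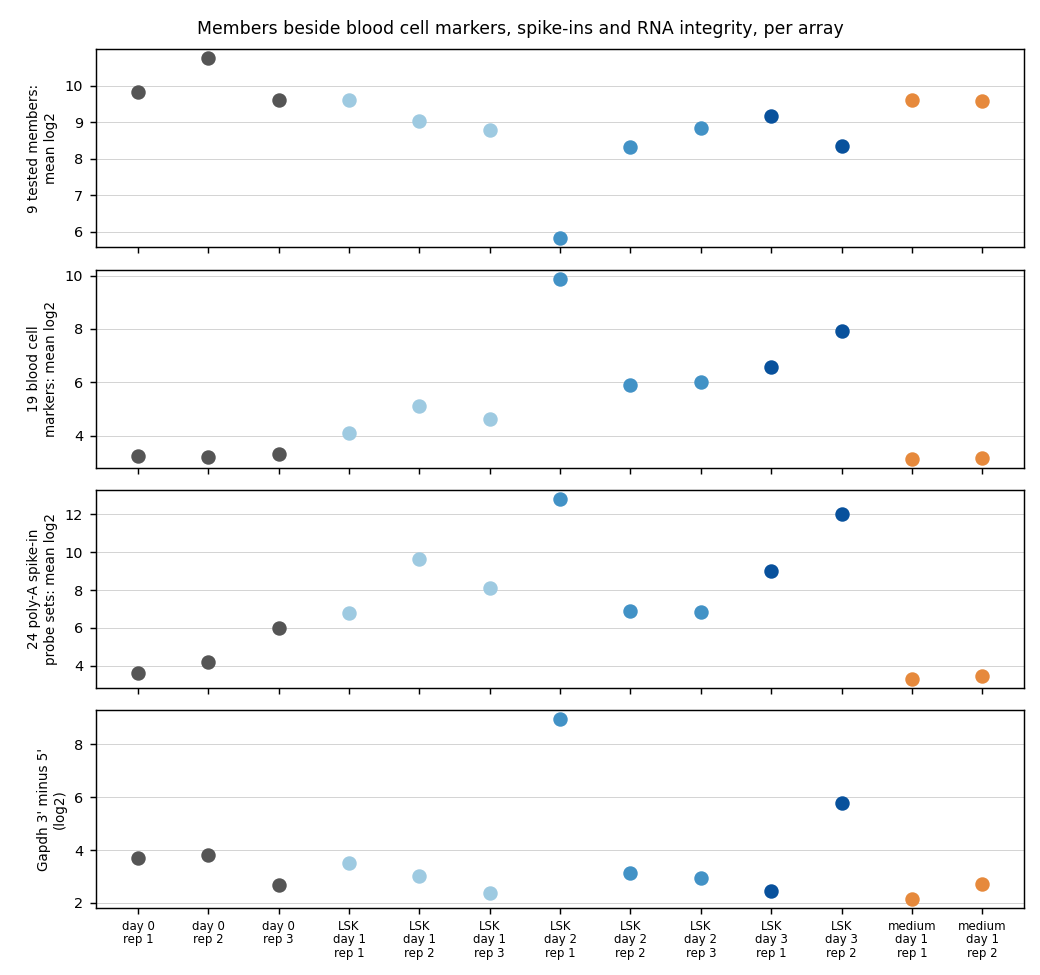
The panels show, from top to bottom the mean log2 level of the 9 tested genes, of 19 blood cell markers and of 24 poly-A spike-in probe sets, and the log2 gap between 3' and 5' Gapdh probe sets. Arrays run along the x axis by group (day 0, co-culture days 1, 2 and 3, and medium control), 1 point each. The blood cell list reaches 9.89 in replicate 1 of day 2, against at most 3.32 in arrays without LSK cells, and that array also has the Gapdh gap of 8.96.

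The membrane-anchored Mmp14 was lower in co-culture by its main probe set. It had log2 values of 8.93, 9.07 and 7.73 at day 0, 7.20, 7.32 and 6.68 on day 1 of co-culture, 5.77, 7.04 and 7.06 on day 2, and 6.65 and 6.40 on day 3. The medium control had 8.85 and 8.49, so every co-culture array lay below every array without LSK cells. On day 1, Mmp14 averaged 7.07 ± 0.34 (SD, n = 3) in co-culture and 8.67 ± 0.25 (SD, n = 2) in the medium control, a difference of -1.60 ± 0.49 (SE) that missed the threshold (adjusted p = 0.0929, limma over all 12205 genes). Against day 0 the differences were -1.51 on day 1, -1.96 on day 2 and -2.05 on day 3, with adjusted p of 0.111, 0.0528 and 0.104, also short of the threshold. A second probe set, 1416572_at, passed for day 1 against medium at -1.76 (adjusted p = 0.03 in a limma fit of all probe sets), and another, 1440920_at, had +0.83 there (adjusted p = 0.854). The 3 probe sets of Mmp14 therefore did not agree in direction on day 1. Without the 2 arrays of widest Gapdh gap, a choice made after seeing the data, Mmp14 was lower on day 1 than in medium (adjusted p = 0.0339) and than at day 0 (adjusted p = 0.0387, limma).

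Mmp2, gelatinase A and the protease that Mmp14 activates, fell on day 2. Its values were 4.45, 6.14 and 4.81 at day 0, 4.41, 3.56 and 4.03 on day 1 of co-culture, 3.06, 2.91 and 3.28 on day 2, and 3.83 and 3.27 on day 3. The medium control had 3.50 and 3.32, also below day 0, so lower Mmp2 was not limited to co-culture. On day 2 it averaged 3.08 ± 0.19 in co-culture and 5.13 ± 0.89 at day 0 (SD, n = 3 each), a difference of -2.05 ± 0.41 (SE, adjusted p = 0.0425, limma). That call held without replicate 3 of day 2 and was lost when any 1 of the other 12 arrays was left out, with adjusted p up to 0.110. The medium control differed from day 0 by -1.73 ± 0.46 (adjusted p = 0.208, limma), and day 1 of co-culture differed from the medium control by 0.60 with a 95% interval of -0.44 to 1.63. The day 2 values of the main probe set lay not far above 2.28, the lowest value on the arrays. A second probe set of Mmp2 gave -1.26 for day 2 against day 0 (adjusted p = 0.143, limma). It was at that lowest value in replicates 1 and 2 of day 2.

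Mmp3, stromelysin-1, which cleaves many matrix proteins and other MMP precursors, varied within groups. It had 4.45, 7.37 and 5.60 at day 0, 5.17, 5.53 and 2.79 on day 1 of co-culture, 3.94, 4.43 and 2.77 on day 2, and 4.09 and 4.69 on day 3, with 5.54 and 6.24 in the medium control. Day 2 of co-culture averaged 3.71 ± 0.86 and day 0 averaged 5.81 ± 1.47 (SD, n = 3 each). Its difference of -2.09 ± 0.88 (SE) did not pass (adjusted p = 0.172, limma). Mmp13, collagenase-3, lay at 2.28 to 2.32 in 12 arrays, next to the lowest value on the array. In replicate 2 of day 3 it was 8.62, and the other day 3 replicate had 2.28. That array had the second-widest Gapdh gap. Mmp13 was above the filter in that array alone and was not tested.

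Mmp23, a membrane-tethered member that lacks the haemopexin domain of most MMPs, was the member that rose on day 1 of co-culture against medium. It measured 10.80, 9.84 and 9.69 on day 1 of co-culture, against 7.57 and 7.58 in the medium control. The means were 10.11 ± 0.60 (SD, n = 3) in co-culture and 7.57 ± 0.01 (SD, n = 2) in medium, and the difference was 2.54 ± 0.59 (SE, adjusted p = 0.0417, limma), 5.81-fold. Day 0 stroma, however, had 9.33, 11.29 and 9.83, in the range of co-culture, and days 2 and 3 of co-culture had 8.79, 9.70 and 9.70, and 10.50 and 9.68. Co-culture on day 1 differed from day 0 by -0.04, with a 95% interval of -1.22 to 1.14. It was the medium control that stood apart, at -2.58 ± 0.59 from day 0 (adjusted p = 0.144, limma). The other Mmp23 probe set gave 2.55 for day 1 against medium with adjusted p = 0.32. The call of the main Mmp23 probe set was lost without either medium array (adjusted p = 0.259 and 0.255, limma), any 1 of the 3 day 1 arrays (0.0947 to 0.120) or replicate 3 of day 0 (0.0587).

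**Figure D2:**
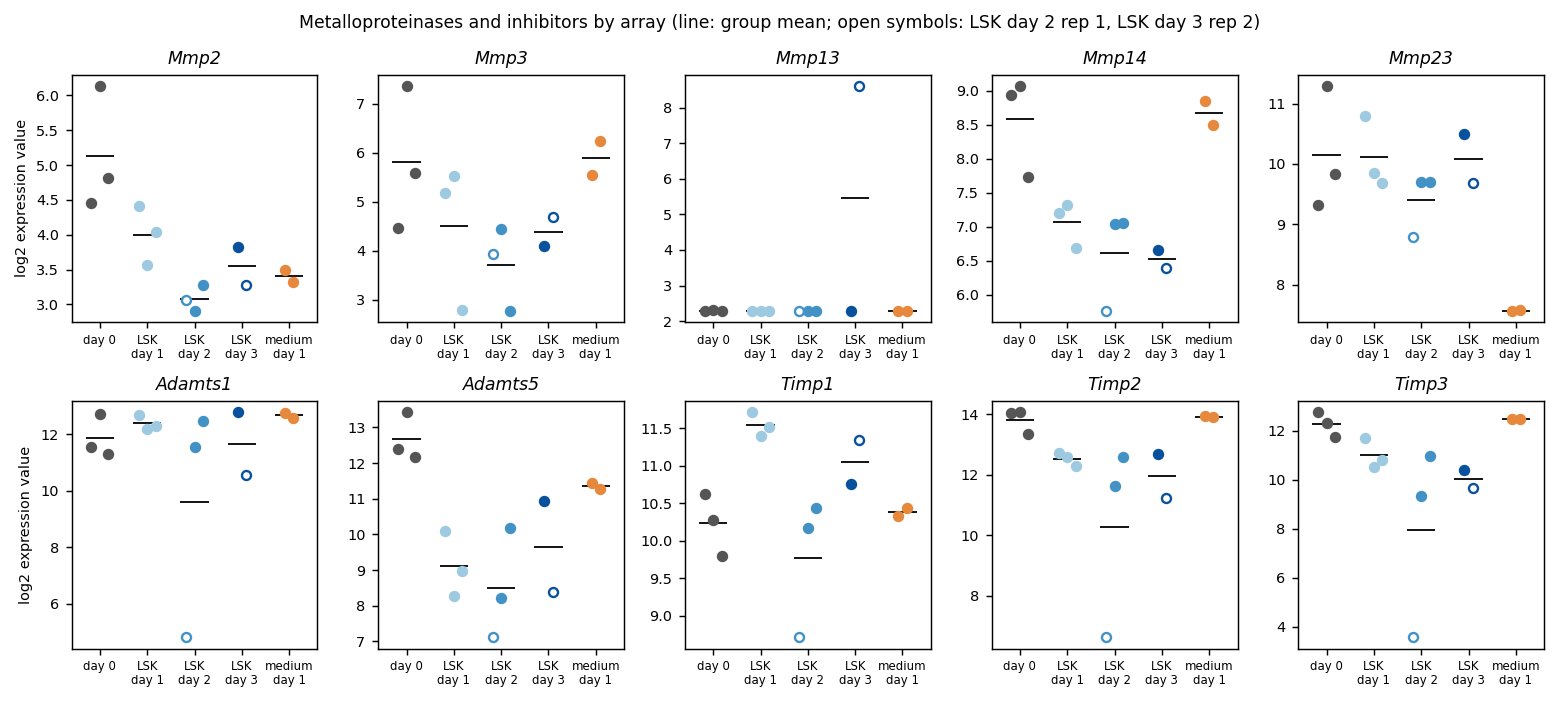
Log2 value of each of the 10 genes (panels) by group on the x axis (day 0, co-culture days 1, 2 and 3, and medium control), 1 point per array, with lines at group means and open symbols for replicate 1 of day 2 and replicate 2 of day 3. In the probe set shown, Mmp14, Timp2, Timp3 and Adamts5 lie lower in all 8 co-culture arrays than in the 5 others. Other probe sets of Mmp14, Timp2 and Adamts5 do not all keep that order. Mmp13 reaches 8.62 in 1 array.

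Adamts5, an aggrecanase that cleaves aggrecan and versican, had the largest negative difference of the 9 genes on day 1 against both references. Its values were 12.39, 13.43 and 12.18 at day 0, 10.11, 8.27 and 8.98 on day 1 of co-culture, 7.12, 8.21 and 10.18 on day 2, and 10.93 and 8.40 on day 3, with 11.44 and 11.28 in the medium control. All 8 co-culture arrays lay below all 5 others, and the medium control in turn below day 0. It fell on day 2, to 8.50 ± 1.55 in co-culture, against 12.66 ± 0.67 at day 0 (SD, n = 3 each), a difference of -4.16 ± 0.88 (SE, adjusted p = 0.0467, limma), 17.9-fold. It was -3.47 without replicate 1 of day 2 and -5.00 without its replicate 3. Day 1 differed from day 0 by -3.55 ± 0.88 (adjusted p = 0.0708, limma) and from medium by -2.24 ± 0.98 (adjusted p = 0.229, limma). The day 2 call held without replicate 3 of day 2 or either day 3 array and was lost without each of the other 10 arrays, with adjusted p up to 0.161. Probe set 1422561_at gave -6.08 for day 2 against day 0 (adjusted p = 0.044, limma) and 1450658_at gave -3.38 (adjusted p = 0.1).

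Adamts1, which cleaves versican and aggrecan and is the chromosomal neighbour of Adamts5, did not share that pattern. It had 11.53, 12.71 and 11.31 at day 0, 12.67, 12.17 and 12.30 on day 1 of co-culture, 4.81, 11.53 and 12.46 on day 2, and 12.78 and 10.55 on day 3. The medium control had 12.75 and 12.58. Day 1 of co-culture lay within the range of the arrays without LSK cells, 11.31 to 12.75, and replicate 1 of day 2 and replicate 2 of day 3 lay below it. Day 1 of co-culture differed from medium by -0.28 ± 1.85 (SE, 95% interval -4.43 to 3.87, adjusted p = 1, limma). Day 2 against day 0 was -2.25, and 0.14 without the 2 arrays of widest Gapdh gap.

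Timp1, the secreted inhibitor, was high on day 1. It measured 11.72, 11.39 and 11.52 on day 1 of co-culture, against 10.32 and 10.44 in the medium control and 10.63, 10.28 and 9.80 at day 0, with no overlap. Days 2 and 3 of co-culture had 8.71, 10.17 and 10.44, and 10.75 and 11.35. The day 1 difference was 1.16 ± 0.47 (SE) from medium and 1.31 ± 0.42 from day 0, with adjusted p of 0.196 and 0.147 (limma), and neither passed. Without replicate 1 of day 2, an array that enters only the estimate of spread, the same differences passed at adjusted p of 0.0238 and 0.0153 (limma). Day 2 of co-culture lay below day 1 by -1.77 ± 0.42 (adjusted p = 0.378, limma).

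Timp2, which inhibits Mmp14 and also helps it activate Mmp2, lay lower in co-culture by its main probe set. It had 14.03, 14.06 and 13.34 at day 0, 12.71, 12.56 and 12.29 on day 1 of co-culture, 6.62, 11.64 and 12.58 on day 2, and 12.67 and 11.22 on day 3, with 13.94 and 13.89 in the medium control. No co-culture array reached any array without LSK cells. Co-culture on day 1 averaged 12.52 ± 0.22 (SD, n = 3) and the medium control 13.91 ± 0.04 (SD, n = 2), and the difference of -1.39 ± 1.40 (SE) did not pass (adjusted p = 0.7, limma). The pooled spread takes in replicate 1 of day 2, at 6.62. Without the 2 arrays of widest Gapdh gap it was the same size with SE 0.33 and passed (adjusted p = 0.0274, limma). Its other probe sets did not agree in direction. For day 1 against medium, 1450040_at gave -1.97 and passed (adjusted p = 0.0498 in a limma fit of all probe sets). There 1433662_s_at gave -1.38, 1420924_at, near the lowest value, gave -0.02 and 1460287_at gave 0.46 (adjusted p = 0.889, limma).

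Timp3, the matrix-bound inhibitor of Adamts5, followed Timp2 most closely of all members. Its values were 12.77, 12.33 and 11.75 at day 0, 11.72, 10.53 and 10.82 on day 1 of co-culture, 3.57, 9.36 and 10.98 on day 2, and 10.38 and 9.65 on day 3. The medium control had 12.48 and 12.47. The highest co-culture value, 11.72, lay just below the lowest value elsewhere, 11.75 at day 0. Day 1 differed from medium by -1.45 ± 1.68 (SE, adjusted p = 0.765, limma), and day 2 from day 0 by -4.32 (95% interval -7.69 to -0.94, adjusted p = 0.125, limma). Without the 2 arrays of widest Gapdh gap, day 2 against day 0 was -2.12. The 3 other probe sets were lower on day 1 than in medium too, by -3.67 (1419089_at, adjusted p = 0.111), -1.25 (1449334_at, 0.109) and -1.61 (1419088_at, 0.001, limma). Probe set 1419088_at was near the low end, at 2.39, 2.39 and 2.29 on day 1 of co-culture, against 4.03 and 3.90 in medium, and it was also 1.15 higher in medium than at day 0 (adjusted p = 0.009).

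**Figure D3:**
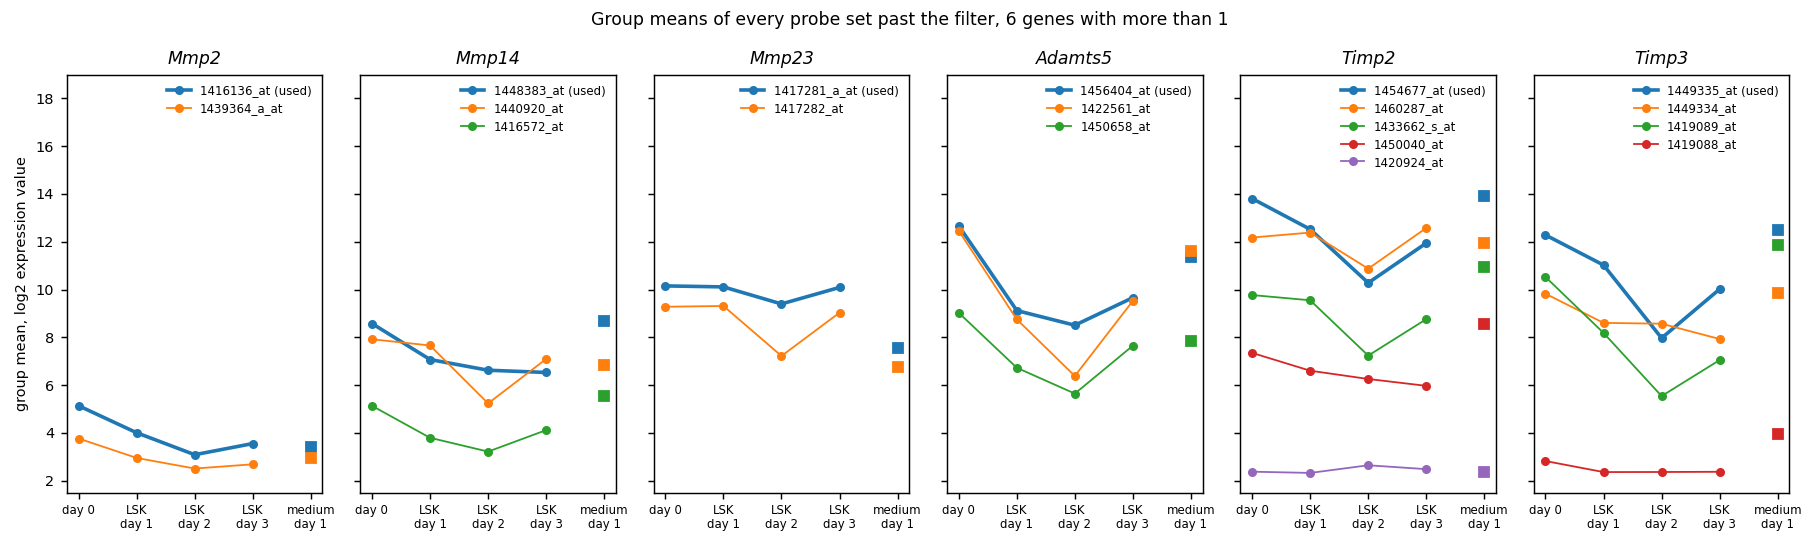
Group means of every probe set past the filter for the 6 genes with more than 1 (panels, log2 on the y axis) from day 0 to day 3 of co-culture (lines) and in medium control (squares). All 3 probe sets of Adamts5 are lower on days 1, 2 and 3 of co-culture than at day 0, while 1460287_at of Timp2 and 1449334_at of Timp3 follow a course unlike that of the main probe set.

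Counted over the 9 tested genes, day 1 of co-culture against medium gave 1 call (Mmp23, higher), where 5.2% of all 12205 genes passed. At an unadjusted p under 0.05 there were 4 of the 9, against 20.9% of all genes, and the groups did not overlap for 8 of the 9, against 62.5% of all genes. Day 2 of co-culture against day 0 gave 2 calls (Mmp2 and Adamts5, both lower), where 2.26% of all genes passed. There 6 of the 9 had an unadjusted p under 0.05 (26.3% of all genes) and 6 lay below day 0 without overlap (16.2% of all genes). The median difference of the 9 genes was -2.09, against -0.29 for all genes and -2.50 for the 11 tested genes of the stroma list. Of those 11 stroma genes, 2 passed, both lower, 9 had an unadjusted p under 0.05 and 8 lay below day 0 without overlap. By limma, 0 of the 9 passed on day 1 against day 0 (2.15% of all genes), with 4 at an unadjusted p under 0.05 (17.3%). On day 3 against day 0 it was 0 (0.819%), with 3 unadjusted (13.8%), and in medium against day 0 it was 0 (0.328%), with 2 unadjusted (9.45%). Day 2 against day 1 of co-culture gave 0 (0.00819%), with 1 unadjusted (12.6%), and day 3 against day 1 gave 0 (0.00819%), with 0 unadjusted (2.93%). The 4 comparisons against day 0 share those arrays, so their values are not independent of each other.

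By the probe set used for each, Mmp14, Timp2, Timp3 and Adamts5 were lower in all 8 co-culture arrays than in all 5 others. That order was looked for after the values were seen. It also held for 1416572_at of Mmp14, 1422561_at of Adamts5 and the other probe sets of Timp3. It did not hold for 1440920_at of Mmp14, 1450658_at of Adamts5, or 1460287_at, 1433662_s_at, 1450040_at and 1420924_at of Timp2. With 1 probe set per gene, the order held for 4 of 9 members, against 7.69% of all genes. No member was higher in all 8, against 2.93% of all genes. The members were chosen with earlier results of these data known, so these shares are a description and not a test. Without replicate 1 of day 2 and replicate 2 of day 3, the same 4 were lower in the remaining 6 arrays, against 10.3% of all genes, and 0 members were higher, against 5.06%. The blood list and the poly-A spike-in controls were higher in those 8 arrays than in the others as well. The stroma list was lower in 7 of the 8 than in any of the 5 others. The part of these in the order was not tested. The leukocyte MMPs Mmp8 and Mmp9 were at most 2.64 on any array, close to the lowest value.

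**Figure D4:**
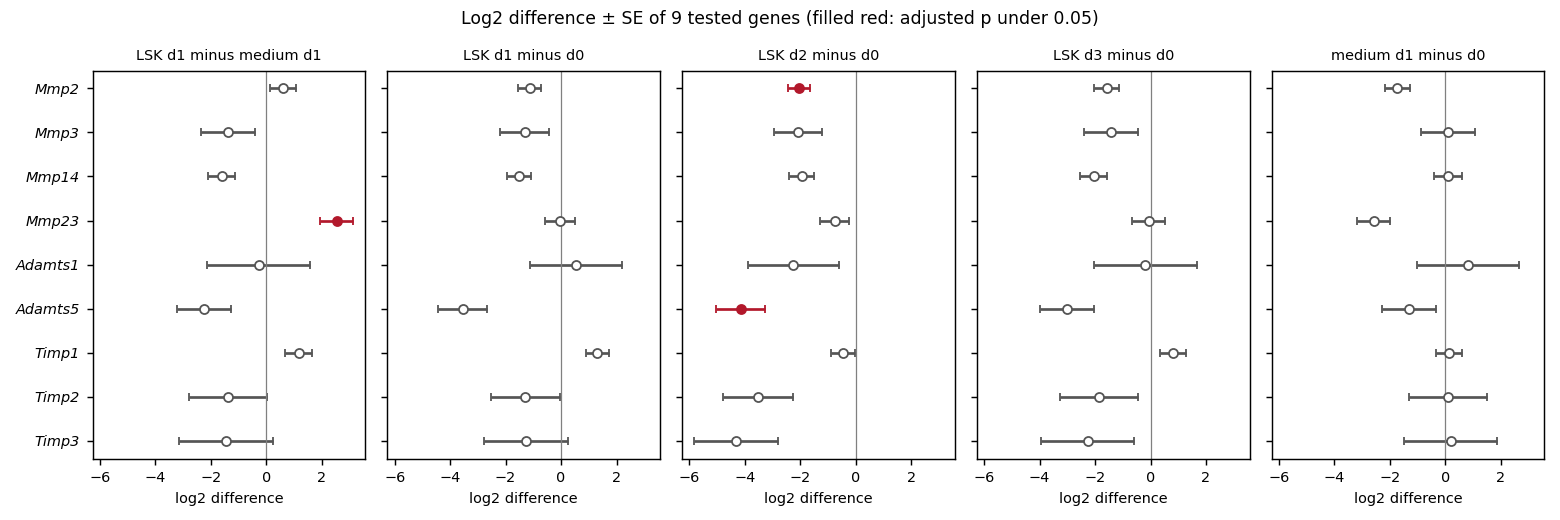
Log2 difference (x axis) of each of the 9 tested genes (rows) in 5 comparisons (panels), with bars of 1 SE and filled points for adjusted p under 0.05. Day 2 of co-culture against day 0 has Adamts5 at -4.16 and Mmp2 at -2.05 filled, and day 1 against medium has Mmp23 at 2.54 filled.

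Related proteases were counted by list. Of 6 other MMPs tested, 0 passed in any comparison by limma, and Mmp11, stromelysin-3, had 11.12, 10.99 and 10.59 on day 1 of co-culture, against 8.79 and 8.91 in medium (difference 2.05 ± 2.07, adjusted p = 0.702). Day 0 had 9.80, 10.24 and 10.91, overlapping day 1 of co-culture (difference 0.59, adjusted p = 1, limma), while the medium control lay below day 0 by -1.47 without overlap (adjusted p = 1). Replicate 1 of day 2 had 2.42 for Mmp11. Of 10 other ADAMTS and ADAMTSL genes, 0 passed in any comparison. On day 2 against day 0 their median difference was -1.08, against -0.29 for all genes. Of 7 ADAM proteases, Adam12, a membrane protease of mesenchymal cells, rose on day 1 of co-culture over day 0 by 1.74 ± 0.36 (adjusted p = 0.0447, limma). Its values were 4.87, 5.63 and 4.75 on day 1, against 3.43, 3.42 and 3.17 at day 0. The medium control, at 4.58 and 4.71, also lay above day 0 without overlap (adjusted p = 0.287, limma), and day 1 of co-culture differed from it by 0.44 (adjusted p = 0.656). Adam8, which leukocytes also express, rose on day 3 over day 0 by 2.89 ± 0.45 (adjusted p = 0.0287, limma), where 5 of 19 blood markers rose too, and the part of blood cells in it was not tested.

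Among 10 inhibitors, activators and clearance genes, 2 rose on day 1 against medium. Plaur, the urokinase receptor that focuses plasminogen activation at the cell surface, had 8.88, 10.12 and 9.80 on day 1 of co-culture, against 7.43 and 7.24 in medium, a difference of 2.27 ± 0.37 (adjusted p = 0.0145, limma). It also rose over day 0 by 2.34 ± 0.33 (adjusted p = 0.0117, limma), and no co-culture array on any day reached down to an array without LSK cells. The blood list was higher in every co-culture array too, and the part of blood cells in the Plaur rise was not tested. Thbs2, thrombospondin-2, which binds Mmp2 and carries it to the uptake receptor Lrp1, had 12.03, 11.74 and 11.66 on day 1 of co-culture, against 9.76 and 10.29 in medium, a difference of 1.78 ± 0.43 (adjusted p = 0.0456, limma). Day 0 had 11.19, 12.12 and 11.08, overlapping day 1 of co-culture, and that difference of 0.34 did not pass (adjusted p = 0.784, limma). Reck, a membrane-anchored MMP inhibitor, had 8.91, 6.84 and 7.95 on day 1 of co-culture, against 10.08, 10.59 and 9.84 at day 0 (-2.27 ± 1.10, adjusted p = 0.338, limma). The medium control, at 8.74 and 9.19, also lay below day 0, by -1.20 (adjusted p = 0.962), and overlapped day 1 of co-culture, which differed from it by -1.06 (adjusted p = 0.765, limma). Of the ADAMTS substrates only Vcan, versican, was tested. It had 12.64, 13.01 and 12.74 on day 1 of co-culture, against 13.91 and 13.75 in medium (-1.03 ± 0.33, adjusted p = 0.108, limma). Day 0 had 12.86, 13.34 and 12.88, which overlapped day 1 of co-culture (-0.23, adjusted p = 0.838, limma), and the medium control lay above day 0 by 0.80 without overlap (adjusted p = 0.47).

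Profiles over the 13 arrays, each centred on its own mean, were compared by their root mean square difference, with no test. Timp2 and Timp3 were the closest pair of members at 0.52. Adamts1 and Adamts5 lay 1.86 apart although their genes adjoin. Outside the members, out of 7475 candidate genes, the nearest were Calu to Timp2 (0.28), Sdc2 to Timp3 (0.32), Rab34 to Timp1 (0.32), Pkdcc to Mmp23 (0.34), Sp1 to Mmp14 (0.37), Cavin1 to Adamts1 (0.39), Csad to Mmp2 (0.46), Lifr to Adamts5 (0.55) and Dtl to Mmp3 (0.82). Replicate 1 of day 2, far below the other arrays for Timp2, Timp3 and Adamts1, enters each of these differences.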

How the data were processed

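Stroma of UG26-1B6 was measured on 13 Affymetrix arrays. The deposited values are log2 expression per probe set, as the authors made them, with RMA and GCRMA named per the submitters' processing notes (their versions and roles not given in the sources used here). The pooled median of 2.38 lies close to the lowest value of 2.28, and the 45101 probe sets include 64 controls. The arrays carry no read depth, and their number limits the precision.

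A single gene symbol was annotated for 34958 probe sets, and 25216 probe sets passed the filter. Among probe sets that met both conditions, the one with the highest mean was kept for each gene, giving 12205 genes. limma 3.58.1 in R 4.3.3 (lmFit and eBayes, 1 fit over all arrays with a mean per group) gave 7 comparisons, adjusted by Benjamini-Hochberg over all genes, with a threshold of 0.05. The script was tested on simulated data, and Python 3.11.15 made tables and figures. Alternatives were the filter, array scaling, probe set per gene, variance model, array weights, the groups fitted, a replicate block and leaving out arrays. The members and lists were chosen with earlier results of these data known. Named genes were the 10 members and, from each further list, up to 4 past the threshold or else up to 2 with the highest mean; Reck was also named after its values were seen. Marker lists covered blood cells, stroma, endothelium, epithelium and leukocyte MMPs. For Mmp2 and Adamts5 no promoter is shown.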

Additional observations from a re-analysis of the deposited data

Results flagged for a closer look

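Mmp23 drew attention because its 2 day 1 conditions departed from day 0 by different amounts. Co-culture on day 1 lay -0.04 from day 0 and the medium control -2.58, on the log2 scale, and the test of the difference between them gave 2.54 ± 0.59 (SE, adjusted p = 0.0417, limma). All 3 co-culture arrays lay above both medium arrays. Mmp13, outside the tested genes, drew attention because replicate 2 of day 3 of co-culture measured 8.62 while the other 12 arrays measured 2.28 to 2.32.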

How the results depend on the processing

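Of 1540 recomputed member values over 63 results, 1312 kept a call or, if uncalled, stayed within 1 SE with the same sign. Another 52 gained a call, 131 uncalled values moved further or changed sign, and 0 called values turned sign. The 45 lost calls all fell on the called results. Mmp23 on day 1 against medium lost its call in 11 of 24 settings. On day 2 against day 0, Mmp2 lost it in 19 of 24 and Adamts5 in 15 of 25. Most results had no call to lose, and leaving out an array from outside a comparison could not change its difference. The number of members called shifted too. For day 1 of co-culture against medium (1 call), it was 0 with no filter, the mean of probe sets, a trended robust variance or the replicate block, 6 with array weights, and 4 with only the compared groups fitted. Against day 0, day 1 (0 calls) gave 1 under quantile normalization and under median centring (Adamts5), 6 with array weights and 3 with only the compared groups. Day 2 against day 0 (2 calls) gave 0 with no filter, only the compared groups or the replicate block, 1 under median centring (Adamts5) and 4 with array weights. Medium against day 0 (0) gave 2 with array weights (Mmp2 and Mmp23) and day 2 against day 1 (0) gave 1 (Timp1). Without the 2 arrays of widest Gapdh gap, added after seeing the data, day 1 gave 4 calls against medium (Mmp14, Mmp23, Timp1, Timp2) and 4 against day 0 (Mmp14, Timp1, Timp2, Adamts5), and day 2 against day 0 gave 1 (Timp2). Leaving out 1 array in turn gave 0 to 3 calls for day 1 against medium, 0 to 3 for day 1, 0 to 5 for day 2 and 0 to 3 for day 3 against day 0, 0 to 1 for day 2 against day 1, and 0 throughout for medium against day 0 and day 3 against day 1. The highs came without replicate 1 of day 2 (3 calls: Mmp14, Timp2 and Timp3 on day 3) or, on day 2, without its replicate 3 (5: Mmp2, Mmp14, Timp2, Timp3 and Adamts5). Array weights gave replicate 1 of day 2 a weight of 0.0389 and each medium array 6.66. Causes of these shifts were not tested.

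Counts over all genes shifted as well: 635 for day 1 against medium, 7 to 2103 with 1 array left out and 208 to 6423 otherwise; 276 for day 2 against day 0, 26 to 3497 and 0 to 2542; 263 for day 1 against day 0, 9 to 1290 and 103 to 3583; 100 for day 3 against day 0, 4 to 939 and 4 to 690; 40 for medium against day 0, 8 to 166 and 4 to 3585; and 1 each for days 2 and 3 against day 1, 0 to 1887 and 0 to 1272 on day 2, 0 to 106 and 0 to 105 on day 3. Higher and lower calls were 263 and 372 for day 1 against medium, and 372 and 320 under quantile normalization. For day 1 against day 0 they were 101 and 162, and 154 and 145 under quantile normalization. For day 2 against day 0 they were 78 and 198, 105 and 123 under quantile normalization, and 49 and 51 under median centring, where the median of all genes was 0.49 in place of -0.29. For medium against day 0 they were 27 and 13, and 2 and 2 under median centring. In day 2 against day 0 all 9 member differences were below 0, but under median centring Mmp23 was 0.02 and Timp1 0.31.

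Whether the replicate numbers pair the arrays could not be settled. Of 23 same-number pairs across groups, 8 had deviations correlated over 0.1, with a range of -0.37 to 0.26. Pairs of different number ranged from -0.38 to 0.38. Deviations in groups of 2 arrays mirror each other, so these correlations are not independent. The replicate block gave 0 member calls in every comparison. Precision was limited by 2 or 3 arrays per group.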
